A study of Mus musculus with 42 samples.

Results

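Tristetraprolin (TTP, gene Zfp36) is an RNA-binding protein with zinc fingers that attaches to AU-rich stretches in the 3′ untranslated region (3′ UTR) of mRNAs and recruits the machinery that shortens the poly(A) tail, so that the bound mRNA decays. Lipopolysaccharide (LPS), the bacterial ligand of Toll-like receptor 4, switches on cytokine and chemokine genes in macrophages, and many of these transcripts are transient: they peak early and decline while the stimulus is still present. TTP is itself induced by LPS and is known for limiting cytokine mRNAs such as Tnf in macrophages. The values described here are those of the late transition, between 3 and 6 h of LPS, in macrophages that lack TTP.

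The 6 libraries of this transition, of 42 in the series, were made from bone marrow-derived macrophages (BMDMs) of ΔM mice, 3 after 6 h and 3 after 3 h of LPS at 10 ng/ml, with no time in actinomycin D. In ΔM mice floxed Zfp36 is deleted by LysM-Cre, a Cre recombinase active in myeloid cells, and the labels give the genotype as TTP-/-. The WT counterpart is 6 libraries of BMDMs from WT littermates at the same times, and 3 unstimulated libraries of each genotype give the level at 0 h. All mice were C57BL/6 and were 7 to 9 weeks old when bone marrow was taken, the cells were grown out with L929-derived CSF-1, and after LPS the medium was exchanged for medium with actinomycin D (5 µg/ml), and the 0 min cultures were lysed at that point. The deposited tables hold 1 pooled value per gene, genotype and LPS time, as FPKM (fragments scaled to transcript length and library size). No spread between replicates can be taken from them, so every change below is a difference between single pooled values, with no test and no error. The depth of the libraries is unknown from these tables, and the FPKM of a group summed to between 675870 and 698659 in the 4 LPS groups.

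Of 21951 genes in the table, 10975 reached an FPKM of at least 1 in ΔM cells at 6 h or 3 h. The change of a gene was taken as log2((FPKM at 6 h + 1)/(FPKM at 3 h + 1)), which understates the change of low genes. Rose and fell are written for changes of at least 2-fold on this scale.

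Zfp36 stood at 5.98, 16.3 and 31.0 FPKM at 0, 3 and 6 h in ΔM cells, against 118, 1017 and 1782 FPKM in WT cells. The target was therefore low in ΔM cells at every time. Plekhg2, the gene next to Zfp36 on chromosome 7 (GRCm38, 28359603 to 28372681, with Zfp36 at 28376784 to 28379228), went the other way, with 77.0, 269 and 932 FPKM at 0, 3 and 6 h in ΔM cells against 7.11, 16 and 26.5 FPKM in WT cells. All 11 macrophage markers examined passed the FPKM filter. Their summed FPKM was 6072 at 6 h and 7725 at 3 h in ΔM cells, against 7593 and 10084 in WT cells. Of 10 neutrophil markers only S100a8 reached 1 FPKM, and the 10 summed to 17.0 FPKM at 6 h and 3.27 at 3 h in ΔM cells against 5.68 and 3.65 in WT cells. Ly6g was at 0 in both ΔM groups. No listed marker of T and NK cells, mast cells or erythroid cells reached 1 FPKM in ΔM cells at either LPS time, while 1 of B cells (Ighm), 1 of dendritic cells (Ccr7) and 3 of fibroblasts did. The B cell markers summed to 7.54 FPKM at 6 h and 13.7 at 3 h in ΔM cells against 24.0 and 46.5 in WT cells, nearly all of it Ighm, with Ms4a1, Pax5 and Cd79a at 0.05 FPKM or less. Their part in the results was not tested. In bulk samples fewer cells of a type and less RNA per cell cannot be told apart.

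Before the values, some of the sequences at issue are shown. Each line is a stretch of at most 30 bases of the 3′ UTR, 5′ to 3′ on the transcribed strand, where TTP was crosslinked to the RNA of LPS-treated macrophages in the study's site list. Capitals mark TATTTAT, the 7-base AU-rich core searched for on the sense strand (overlapping copies included). The first 3 genes fell less in ΔM than in WT cells and the last 3 fell alike, so that the lines can be read against the values below.
Cxcl1: tccTATTTATtta
Cxcl2: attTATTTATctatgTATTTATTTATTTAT
Tnf: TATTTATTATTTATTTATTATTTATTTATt
Ccl4: tattatttctatTATTTATgttttagttat
Icam1: ttgatgTATTTATtaattta
Il1a: tctatgTATTTATaaataTATTTATgataa
All 6 stretches matched the mouse genome build NCBIM37 (mm9) letter for letter. The Cxcl1 stretch lies on chromosome 5 at 91321633 to 91321645 (plus strand), and the Cxcl2 stretch nearby at 91334354 to 91334383 (plus strand). The Tnf stretch lies on chromosome 17 at 35336622 to 35336651 (minus strand). Those of the genes that fell alike are on chromosome 11 at 83478043 to 83478072 (Ccl4, plus strand), chromosome 9 at 20832763 to 20832782 (Icam1, plus strand) and chromosome 2 at 129125839 to 129125868 (Il1a, minus strand). The Tnf stretch holds 5 copies of the core and the Cxcl2 stretch 4, against 2 in Il1a and 1 each in Cxcl1, Ccl4 and Icam1. Each stretch is 1 window of a gene that can hold more sites, so these counts do not stand for the gene. Over the whole annotated 3′ UTR there were 8 copies in Tnf, 7 in Cxcl2, 6 in Cxcl1, 3 in Il1a, 2 in Icam1 and 1 in Ccl4.

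In ΔM cells 372 of the 10975 genes (3.39%) rose between 3 and 6 h and 646 (5.89%) fell. In WT cells 412 of the same genes (3.75%) rose and 671 (6.11%) fell. The median change of all genes was -0.21 in ΔM and -0.20 in WT cells. With the changes centred on the median of genes at FPKM 10 or more, the ΔM split turned to 562 that rose and 367 that fell, and the WT split to 681 and 395. Of the genes that fell in ΔM cells, 455 (70.4%) fell in WT cells as well, and of those that rose, 288 (77.4%) rose in WT cells. The number that rose in one genotype and fell in the other was 0. Across the 10975 genes the ΔM change and the WT change had a Spearman correlation of 0.84 (a description across genes, which are not independent).

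**Figure D1:**
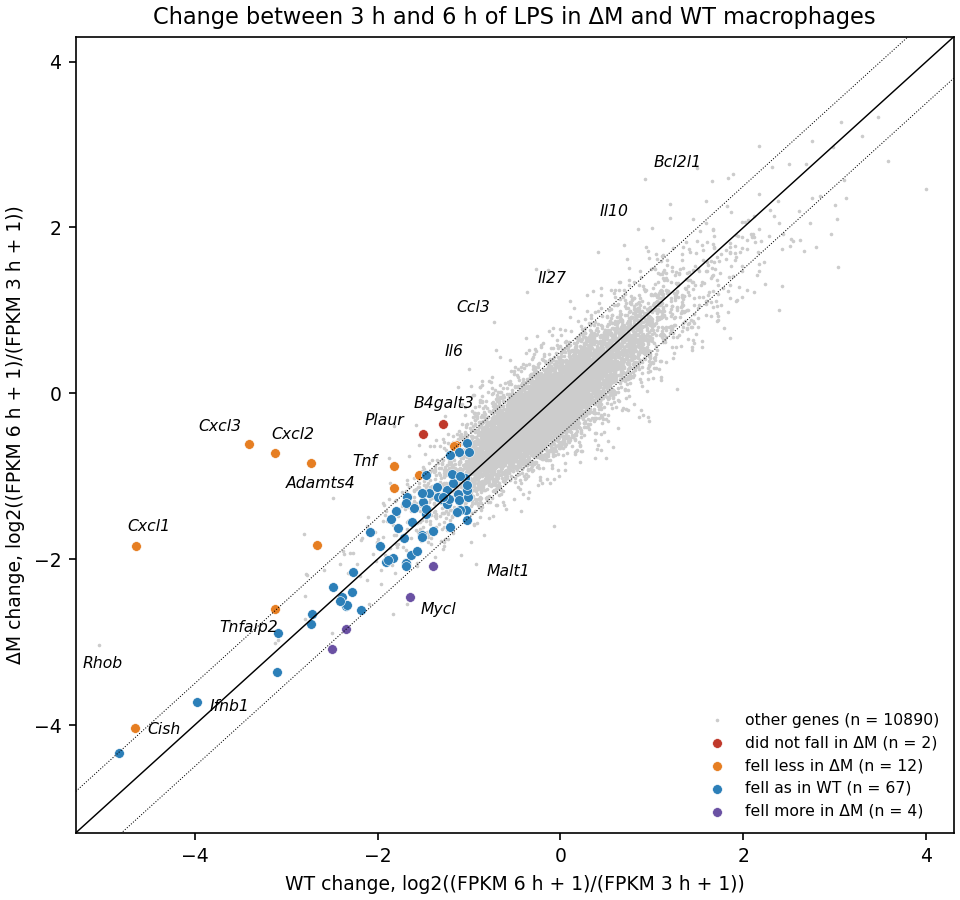
Change between 3 and 6 h of LPS in ΔM cells (vertical axis) against WT cells (horizontal axis), log2((FPKM 6 h + 1)/(FPKM 3 h + 1)), 1 point per gene for 10975 genes. The solid line marks equal change and the dotted lines a difference of 0.5. Coloured points are the 85 transient genes of WT cells by their class in ΔM cells: 67 lie between the dotted lines, while Cxcl1, Cxcl2, Cxcl3 and Adamts4 stand well above them.

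Which transient genes failed to fall without TTP was asked of genes that were transient in WT cells: an FPKM of at least 10 at 3 h, a rise of at least 2-fold over 0 h, and a fall of at least 2-fold by 6 h. There were 85 such genes, all of which passed the filter in ΔM cells. A gene was counted as not falling where its ΔM change stayed above -0.5 (a fall of less than 1.41-fold), as falling less where the fall was smaller than in WT cells by at least 0.5, as falling as in WT where the 2 changes differed by less than 0.5, and as falling more where the ΔM fall was larger by at least 0.5. By these limits 2 genes (2.35%) did not fall in ΔM cells, 12 (14.1%) fell less, 67 (78.8%) fell as in WT, and 4 (4.71%) fell more. All 85 were lower at 6 h than at 3 h in ΔM cells, with changes between -4.33 and -0.37. The first and second classes together were 14 genes (16.5%). A ΔM change higher than the WT change by at least 0.5 was seen in 2.79% of the 5563 genes with an FPKM of 10 or more, and in 2.45% of the genes at 10 FPKM or more at 3 h in WT cells that were not transient.

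The genes whose fall was most reduced were 3 neutrophil-attracting CXC chemokines, which lie near each other on chromosome 5 (GRCm38: Cxcl3 at 90786101 to 90788093, Cxcl1 at 90891245 to 90893121, Cxcl2 at 90903899 to 90905938). Cxcl2 was at 108, 5658 and 3428 FPKM at 0, 3 and 6 h in ΔM cells, against 57.0, 1564 and 179 FPKM in WT cells. Its change was -0.72 in ΔM and -3.12 in WT cells, a difference of 2.40. Cxcl2 was thus already higher in ΔM cells at 3 h, by 1.85 on the log2 scale, and at 6 h by 4.25.

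Cxcl1 was at 3.76, 1589 and 444 FPKM at 0, 3 and 6 h in ΔM cells, against 2.98, 629 and 24.3 FPKM in WT cells. It fell in both genotypes, by 1.84 in ΔM and by 4.64 in WT cells, and ended 4.14 higher in ΔM cells at 6 h (log2). Cxcl3 was at 14.6, 352 and 231 FPKM in ΔM cells, against 5.62, 385 and 35.3 FPKM in WT cells. In contrast to Cxcl1 and Cxcl2, its 3 h levels were close, with ΔM lower by 0.13, and its 6 h level was higher in ΔM cells by 2.67. The changes of Cxcl3 were -0.61 in ΔM and -3.41 in WT cells.

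Tnf, the inflammatory cytokine best known as a TTP target, was at 64.7, 4880 and 2661 FPKM at 0, 3 and 6 h in ΔM cells, against 58.5, 3322 and 940 FPKM in WT cells. It fell less in ΔM cells, with changes of -0.87 in ΔM and -1.82 in WT cells. Adamts4, a metalloproteinase that cleaves the matrix protein aggrecan, was at 0.03, 10.6 and 5.47 FPKM in ΔM cells, against 0.01, 17.5 and 1.80 FPKM in WT cells. Its change was -0.84 in ΔM and -2.73 in WT cells, from low levels and with a 3 h peak that was lower in ΔM cells.

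The 2 genes counted as not falling were close to the limit. Plaur, the receptor for urokinase, was at 35.6, 98.7 and 70.1 FPKM at 0, 3 and 6 h in ΔM cells, against 30.2, 117 and 40.6 FPKM in WT cells, with changes of -0.49 in ΔM and -1.50 in WT cells. B4galt3, a galactosyltransferase, was at 36.3, 80.5 and 62.0 FPKM in ΔM cells, against 23.7, 86.5 and 34.8 FPKM in WT cells, with changes of -0.37 in ΔM and -1.29 in WT cells. B4galt3, whose end overlaps that of Ppox on the other strand, lies next to Adamts4 on chromosome 1 (GRCm38: Adamts4 at 171250129 to 171262267, B4galt3 at 171270328 to 171276895).

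The other 7 genes that fell less had differences between 0.52 and 0.84. They were Cited2, a transcriptional coregulator, Nr4a3, an orphan nuclear receptor, Cish, a suppressor of cytokine signalling, Atp2b4, a calcium pump of the plasma membrane, Cdkn1a, the cell cycle inhibitor p21, Phldb1, and Csf1, the macrophage growth factor. Cish had 0.24, 54.1 and 2.37 FPKM at 0, 3 and 6 h in ΔM cells against 0.56, 124 and 3.97 FPKM in WT cells, so that it fell by 4.03 in ΔM and by 4.65 in WT cells. Csf1 had 5.37, 116 and 74.7 FPKM in ΔM cells against 5.13, 222 and 99.7 FPKM in WT cells, and so was lower in ΔM cells at both LPS times although it fell less. The smallest differences inside the class were those of Csf1 (0.52) and Phldb1 (0.52), and the largest just outside was that of Gm17041 (0.50 after rounding). With a pseudocount of 0.1 the differences of Atp2b4, Phldb1 and Cish were 0.33, 0.40 and 0.47 and these 3 genes counted as falling as in WT, and with a pseudocount of 5 Phldb1 again did so and Atp2b4 was no longer transient by the rule. Gm17041 lies antisense within Cish and had nearly the same values. The counting is not stated to use strand, so reads of the pair cannot be told apart.

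**Figure D2:**
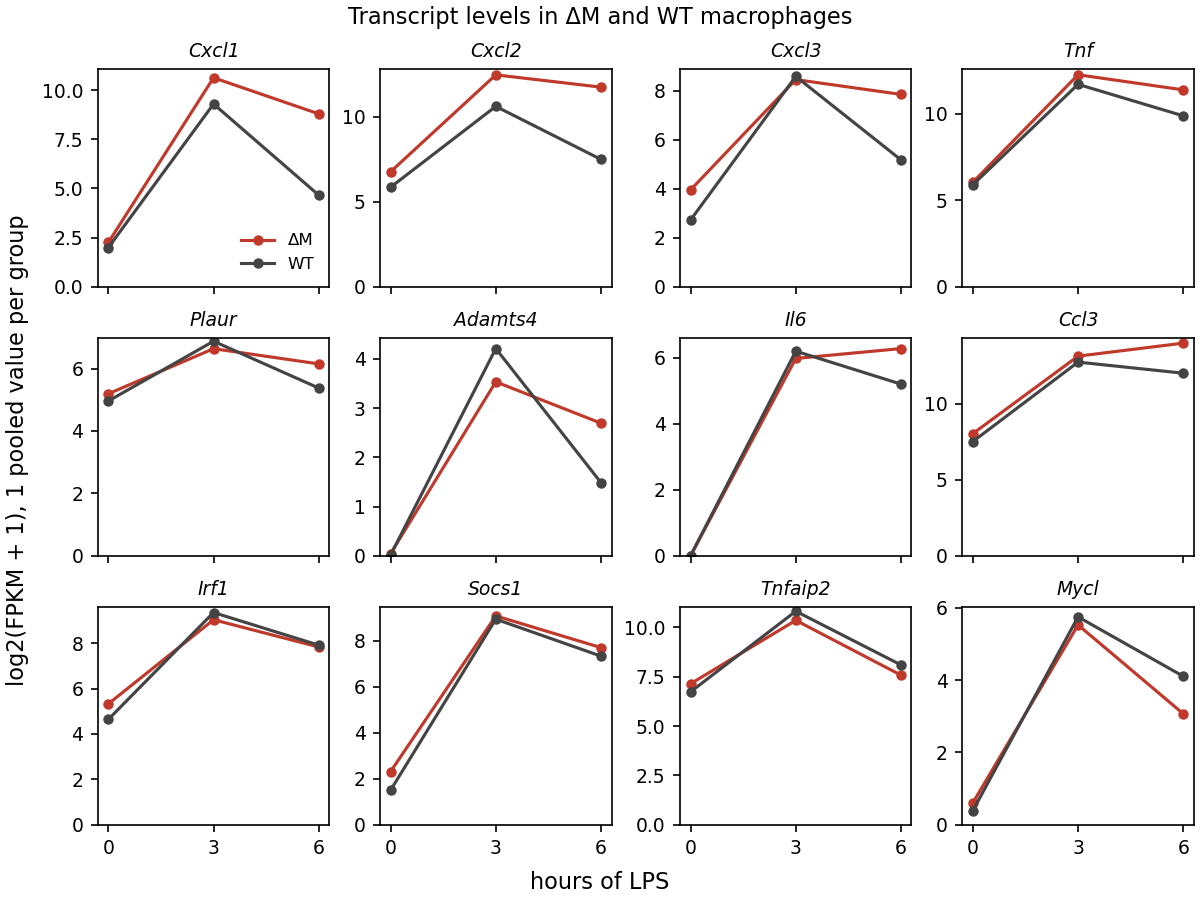
Levels of 12 genes at 0, 3 and 6 h of LPS in ΔM cells (red) and WT cells (grey), log2(FPKM + 1), 1 pooled value per group and no error bars. Cxcl1, Cxcl2, Cxcl3 and Tnf were higher in ΔM than in WT cells at 6 h. Ccl3 and Il6 were higher at 6 h than at 3 h in ΔM cells and lower in WT cells. The lines of Irf1, Socs1 and Tnfaip2 ran nearly parallel after 3 h.

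Genes that were higher at 6 h than at 3 h in ΔM cells and lower in WT cells were found just outside the 2-fold WT fall. Il6, the pleiotropic cytokine, was listed at 0 FPKM at 0 h in both genotypes and was at 76.6 at 6 h and 62.1 at 3 h in ΔM cells, against 35.8 and 72.5 FPKM in WT cells. Its change was 0.30 in ΔM and -0.999 in WT cells, just short of the limit. Ccl3, a CC chemokine that attracts monocytes, was at 263, 9118 and 16518 FPKM at 0, 3 and 6 h in ΔM cells, against 183, 6938 and 4184 FPKM in WT cells. Its change was 0.86 in ΔM and -0.73 in WT cells. With a WT fall of at least 1.5-fold in place of 2-fold there were 149 transient genes, of which 11 did not fall in ΔM cells, and Ccl3 and Il6 were the 2 of them with a ΔM change above 0. At this lower limit a gene could count as not falling although its 2 changes were alike. Rin3, Mafk, Pvrl2, Spsb1, Mark2 and Pip5k1a were counted so with differences from WT of only 0.15 to 0.44. On the other side of the 2-fold limit the nearest members were a gene known only by its ID, Tnfsf9, Ptger4 and Filip1l, with WT changes between -1.02 and -1.005 and ΔM changes between -1.25 and -0.71.

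Most transient genes fell in ΔM cells as they did in WT cells. The 67 genes of this class had a median change of -1.44 in ΔM and -1.51 in WT cells, and the ΔM change was the higher in 35 and the lower in 32. Irf1, a transcription factor of the interferon response, was at 39.1, 523 and 226 FPKM at 0, 3 and 6 h in ΔM cells, against 24.0, 651 and 240 FPKM in WT cells. Socs1, an inhibitor of cytokine receptor signalling, was at 3.95, 538 and 206 FPKM in ΔM cells, against 1.83, 488 and 159 FPKM in WT cells. Their changes were -1.20 in ΔM and -1.44 in WT cells for Irf1, and -1.38 in ΔM and -1.61 in WT cells for Socs1.

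The largest ΔM falls of the class, apart from Gm17041, were those of Ifnb1, Frmd6, Rnd1, Tnfaip2, Jdp2, Icosl, Adgrl2, Tshz1, Zhx2, Swap70 and Dennd4a. Ifnb1, which encodes interferon beta, reached 186 FPKM at 3 h in ΔM cells, against 26.5 FPKM in WT cells. By 6 h it stood at 13.1 FPKM in ΔM and 0.75 FPKM in WT cells, with changes of -3.73 in ΔM and -3.97 in WT cells from a higher ΔM peak. Its WT level at 6 h was below the pseudocount, and its class rests on it: the difference of 0.25 became 1.15 with a pseudocount of 0.1 FPKM, where it counted as falling less, and -0.94 with a pseudocount of 5, where it counted as falling more. Frmd6 and Icosl counted as falling more with a pseudocount of 0.1. Tnfaip2, a TNF-induced gene, was at 141, 1316 and 191 FPKM at 0, 3 and 6 h in ΔM cells, against 106, 1811 and 273 FPKM in WT cells. Rnd1, a small GTPase, was at 0.82, 89.5 and 11.2 FPKM in ΔM cells, against 0.93, 72.6 and 7.65 FPKM in WT cells. Jdp2, a repressor of AP-1, had changes of -2.66 in ΔM and -2.71 in WT cells. Icosl, a costimulatory ligand, was near the other edge, with changes of -2.62 in ΔM and -2.19 in WT cells.

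The 4 genes that fell more in ΔM cells were Mycl, Hivep3, Gpr132 and Rcsd1. Mycl, a MYC family transcription factor, was at 0.52, 45.2 and 7.41 FPKM at 0, 3 and 6 h in ΔM cells, against 0.31, 53.0 and 16.3 FPKM in WT cells. Its change was -2.46 in ΔM and -1.64 in WT cells. Gpr132, a G protein-coupled receptor, was at 2.64 at 6 h and 29.9 at 3 h in ΔM cells, against 6.29 and 40.2 FPKM in WT cells. Rcsd1 was the member nearest the limit, at a difference of -0.50. With a pseudocount of 5, Hivep3, Gpr132 and Rcsd1 counted as falling as in WT.

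The same question was turned round, since genes chosen by their WT fall are compared from one side. By the same limits 88 genes were transient in ΔM cells, of which 55 were also transient in WT cells (62.5% of the ΔM list and 64.7% of the WT list). Of the 88, 63 (71.6%) fell alike in WT cells, 4 (4.55%) did not fall there, 18 (20.5%) fell less and 3 (3.41%), namely Cxcl1, Cited2 and Cish, fell more. The count of genes with a reduced fall in the other genotype was thus 22 (25%) when ΔM cells set the list, against 14 (16.5%) when WT cells did. This order was reversed with a pseudocount of 5, where the counts were 9 of 57 against 15 of 63. With the GC trend of the changes, described below, taken off the shares were closer, at 17 of 79 against 16 of 83. The order held with a pseudocount of 0.1 (31 of 97 against 15 of 92) and with the changes centred (21 of 71 against 12 of 64). It also held at the other peak levels and class limits tried. Over all genes at an FPKM of 10 or more the ΔM change was lower by at least 0.5 in 4.76%. It was higher by at least 0.5 in 2.79%. The larger share over all genes was thus on the side of the 22. With the GC trend taken off these shares were 2.81% and 1.86%. The part of these shares in the counts was not tested. The sizes differed: 5 of the 14 had a difference of 1 or more and the largest was 2.80, while 1 of the 22 did and the largest was 1.13.

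The gene with that largest difference was Malt1, the paracaspase of NF-κB signalling, at 9.58 at 6 h and 43.0 at 3 h in ΔM cells, against 22.2 and 43.0 FPKM in WT cells. Its 3 h level was the same in both, and its 6 h level was lower in ΔM cells. Tnfaip3, which encodes the ubiquitin-editing NF-κB inhibitor A20, was at 140 at 6 h and 356 at 3 h in ΔM cells, against 228 and 372 FPKM in WT cells. Birc3, Birc2 and Traf1, which act downstream of TNF receptors, also fell in ΔM cells and fell less in WT cells, with ΔM minus WT differences of -0.72, -0.65 and -0.63. Gm7019, Fam102b, Snn and Rnf2 were the 4 that did not fall in WT cells.

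In the second deposited table, the level of each mRNA after actinomycin D, which blocks transcription, is given as a slope fitted over 0, 45 and 90 min. The 0 min libraries of those fits are those behind the FPKM values above, so the 2 tables are not independent. Of the 85 transient genes 82 had slopes. As the difference between slopes (ΔM minus WT, log2 units over 90 min, positive where decay was slower in ΔM cells), the 14 genes that did not fall or fell less had a median of 0.50 at 6 h and 0.62 at 3 h, and the 64 with slopes that fell as in WT had 0.22 at both times. The median over all 10810 genes with slopes was 0.05 at 6 h and -0.05 at 3 h. Decay was slower in ΔM cells at 6 h for 11 of the 14 and 54 of the 64, against 58.6% of all genes, and at 3 h for 14 of the 14 and 47 of the 64, against 45.7% of all genes. The ranges of the classes overlapped, from -0.29 to 3.75 in the 14 and from -0.36 to 1.06 in the 64 at 6 h.

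**Figure D3:**
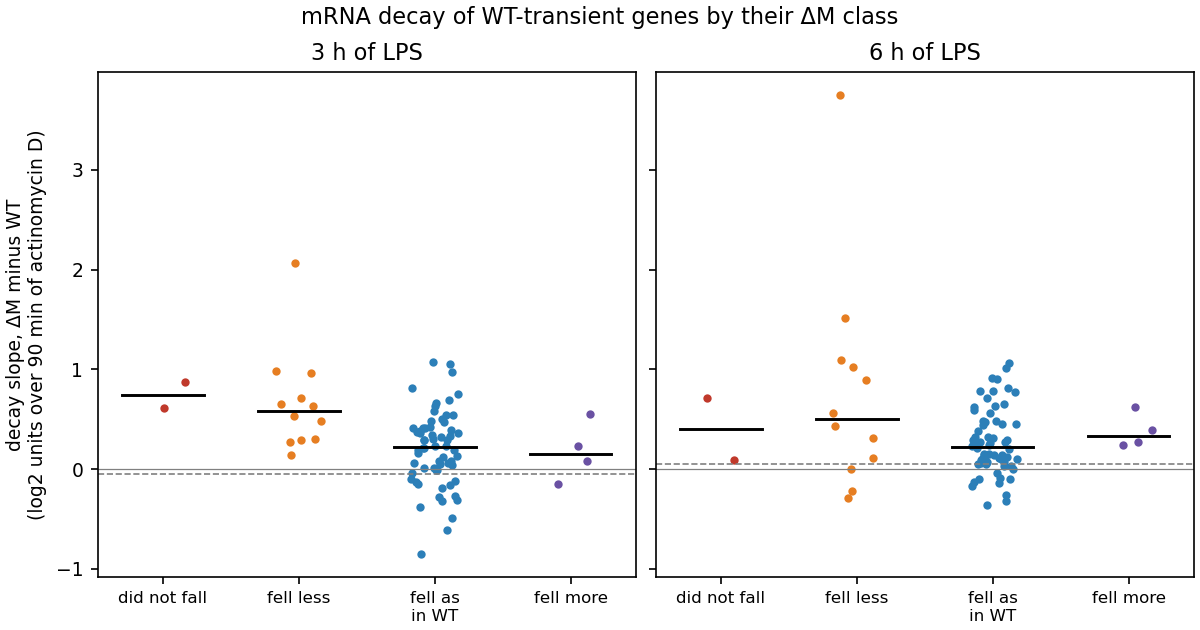
Difference in mRNA decay slope (ΔM minus WT, log2 units over 90 min of actinomycin D) for the 82 transient genes with slopes, by their class in ΔM cells, after 3 h (left) and 6 h (right) of LPS. Each point is a gene, the black bar is the class median, the solid line is 0 and the dashed line is the median of all genes. Tnf, at 2.07 and 3.75, is the highest point at both times, and the class that fell as in WT also lies mostly above 0.

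Tnf had the largest slope difference, with a half-life of 131.5 min in ΔM and 20.3 min in WT cells at 6 h. Half-lives over 180 min, and slopes of 0 or above, are listed as stable. Cxcl1, Cxcl2 and Cxcl3 were listed as stable at 6 h in ΔM cells, against half-lives of 57.3, 84.7 and 104.5 min in WT cells. At 3 h Cxcl2 and Cxcl3 were stable in both genotypes, and Cxcl1 was stable in ΔM cells against 108.7 min in WT cells. B4galt3 was stable in ΔM cells at 6 h against 98.3 min in WT cells, whereas Plaur and Adamts4 were listed as stable in both genotypes at both times.

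Among genes that fell as in WT, half-lives were short in both genotypes for several regulators. Socs1 had 19.7 min in ΔM and 18.6 min in WT cells at 6 h, Irf1 had 31.2 min in ΔM and 26.8 min in WT cells, and Nfkbiz, an atypical inhibitor of NF-κB that drives secondary response genes, had 41.5 min in ΔM and 34.4 min in WT cells. Of the 64 genes of this class with slopes, 54 decayed more slowly in ΔM cells at 6 h. The slope difference was 1.06 for Errfi1, 1.01 for Tnfsf9 and 0.91 for Ppp1r15a. For Ccl4 it was 0.63, with stable in ΔM cells against a half-life of 79.6 min in WT cells. Its level was 6765 FPKM at 6 h and 10206 at 3 h in ΔM cells, against 4422 and 9008 FPKM in WT cells, and its difference of 0.43 between changes was under the limit. Cish and Nr4a3 fell less in ΔM cells but had slightly steeper slopes there at 6 h, with differences of -0.22 and -0.29. At 3 h their differences were 0.96 and 0.53, with slower decay in ΔM cells. Their 6 h levels were low, at 2.37 FPKM in ΔM and 3.97 in WT cells for Cish and 1.85 and 2.88 for Nr4a3.

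Crosslink sites of TTP in the 3′ UTR at 6 h were listed for 13 of the 85 transient genes (15.3%), against 1.8% of all 10975 genes and 3.47% of those with an FPKM of 10 or more. They were listed for 5 of the 14 genes that did not fall or fell less (35.7%), namely Cxcl1, Cxcl2, Tnf, Plaur and Cdkn1a, and for 8 of the 67 that fell as in WT (11.9%), namely Ccl4, Il12b, Icam1, Irf1, Socs1, Il1a, Ppp1r15a and Tnfsf9. None of the 4 that fell more was in the list. Crosslinks are easier to detect in abundant RNA, and the median WT level at 6 h was 33.2 FPKM in the 14 and 15.4 FPKM in the 67. The part of the level in these shares was not tested. With the sites listed for 3 h of LPS the counts were 5 of 14 and 15 of 67, against 1.25% of all genes and 2.43% of those at an FPKM of 10 or more. The 3 h genes were taken by another rule, as those whose listed feature named the 3′ UTR, and the 6 h genes from a list of 3′ UTR targets. The 3 h rule gave 137 genes, fewer than the study counted, so the 2 times are not compared like for like.

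The core TATTTAT was present in the 3′ UTR of 10 of the 14 genes (71.4%) and of 30 of the 60 genes with an annotated 3′ UTR that fell as in WT (50%), against 28.1% of all 9488 genes with one. The median 3′ UTR lengths were 1292, 1393 and 1165 bases. Tnf held 8 copies, Cxcl2 7, Cxcl1 6, Adamts4 and Cish 3 each and Cxcl3 2, while Plaur, Cited2, Cdkn1a and Phldb1 held none. The longer form TTATTTATT was in 5 of the 14 (35.7%) and 5 of the 60 (8.33%), against 7.39% of all genes.

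The difference between the ΔM and the WT change moved with the base composition of the transcript. Over the 5160 protein-coding genes with an FPKM of 10 or more and a GC value, the difference had a Spearman correlation of 0.53 with GC content (across genes). In the tenth of genes with the lowest GC the median change was -0.18 in ΔM and 0.03 in WT cells, and in the tenth with the highest GC it was -0.13 in ΔM and -0.32 in WT cells. The median GC content was 54.3% in the 14 genes that did not fall or fell less and 49.3% in those that fell as in WT. Over all genes at an FPKM of 10 or more it was 51.4%, so the median of the 14 was on the side of higher differences. Cxcl1, Cxcl2 and Cxcl3 have GC contents of 45.1%, 44.1% and 43.0% and so lie on the side where the median difference was below 0. With the GC trend taken off each genotype's changes their differences were 2.93, 2.60 and 3.01. Of the 14 genes that did not fall or fell less, 12 remained in those classes, Cdkn1a and Phldb1 left them, and Il6, Errfi1, Plscr1 and Il12b came in. Plaur, at -0.52 after this step, moved to the genes that fell less. The part of base composition in the other differences was not tested.

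**Figure D4:**
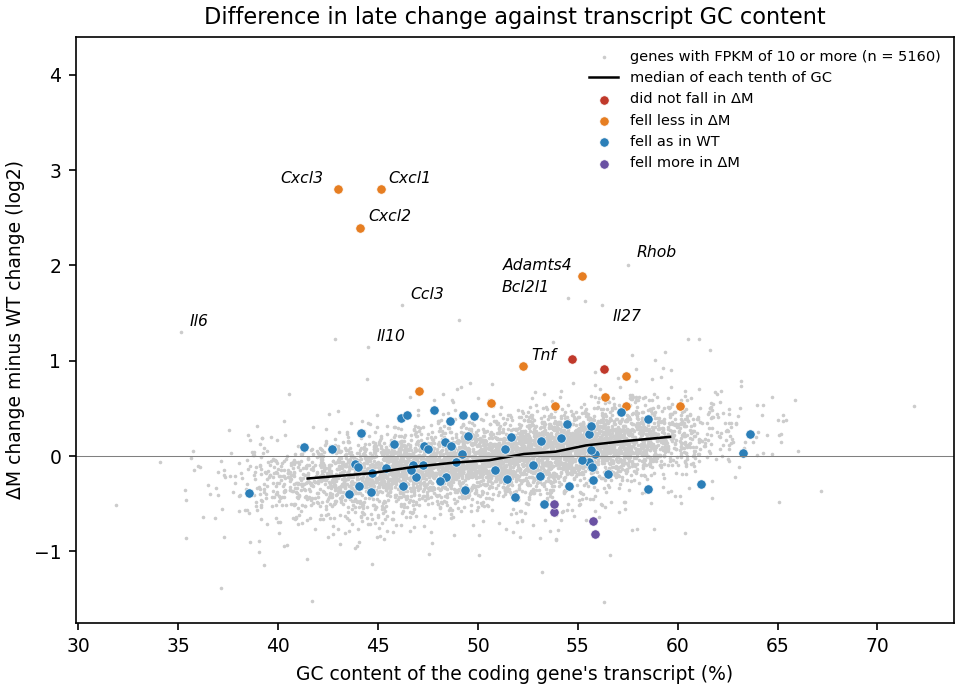
Difference between the ΔM and the WT change (log2) against GC content of the transcript, for the 5160 genes with an FPKM of 10 or more and a GC value. The black line joins the medians of genes grouped by GC and rises with GC, and coloured points are the transient genes by class. Cxcl1, Cxcl2 and Cxcl3 lie far above the line at its low GC end.

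By gene list, the neutrophil chemokines differed most between genotypes. Of 6 listed, 5 passed the filter; 1 fell in ΔM cells and 3 fell in WT cells, with median changes of -0.63 in ΔM and -3.12 in WT cells. Pf4 and Ppbp, platelet-type CXC chemokines, did not fall by 2-fold in either genotype. Among 10 CC chemokines 4 rose in both genotypes (Ccl5, Ccl7, Ccl8 and Ccl12, which attract monocytes and T cells). Among 15 inflammatory cytokines 4 rose and 4 fell in ΔM cells, against 2 and 6 in WT cells, and the ΔM change was higher by at least 0.5 in 6 and lower by at least 0.5 in 3. Over all 10975 genes the shares with such differences were 3.33% and 4.59%. Il27, which encodes the p28 chain of interleukin 27, was at 1.29, 607 and 1419 FPKM at 0, 3 and 6 h in ΔM cells, against 0.60, 508 and 394 FPKM in WT cells. Its change was 1.23 in ΔM and -0.36 in WT cells. Its annotated end overlaps that of Apobr on the other strand.

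The anti-inflammatory cytokine Il10 was at 4.79, 171 and 681 FPKM at 0, 3 and 6 h in ΔM cells, against 2.39, 71.8 and 129 FPKM in WT cells. It rose in ΔM cells, by 1.98, and its WT change was 0.84. Of the 13 genes around Il10, which include its receptor chains and genes it is known to induce, 4 rose in ΔM cells (Il10, Il1rn, Il4ra and Stat3) and the last 3 of them in WT cells. Il1rn, the interleukin 1 receptor antagonist, rose in both, to 5227 FPKM at 6 h in ΔM and 5548 FPKM in WT cells, against 1083 FPKM at 3 h in ΔM and 692 FPKM in WT cells.

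Interferon-stimulated genes were the list with the most members rising less. Of 32 that passed the filter, 6 rose in ΔM cells and 15 in WT cells, and the difference was -0.5 or less in 12 and 0.5 or more in 0. The median change was 0.72 in ΔM and 0.98 in WT cells. The levels were nearest each other at 6 h: by at least 0.5 on the log2 scale, 31 of the 32 were higher in ΔM cells at 0 h, 10 at 3 h and 2 at 6 h. Over all 10975 genes 613 were higher in ΔM cells by this limit at 3 h and 299 at 6 h, so the count was lower at 6 h there too. No count over all genes at 0 h is set beside the 31. Mx1, an antiviral GTPase, was at 6.52, 250 and 285 FPKM at 0, 3 and 6 h in ΔM cells, against 2.06, 148 and 318 FPKM in WT cells. Ifi44 was at 8.42, 28.8 and 71.9 FPKM in ΔM cells, against 1.63, 6.20 and 37.7 FPKM in WT cells. With the GC trend taken off, 6 of the 32 had a difference of -0.5 or less. Over all genes at an FPKM of 10 or more the share with a difference of -0.5 or less was 4.76%, and 2.81% with the GC trend taken off.

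**Figure D5:**
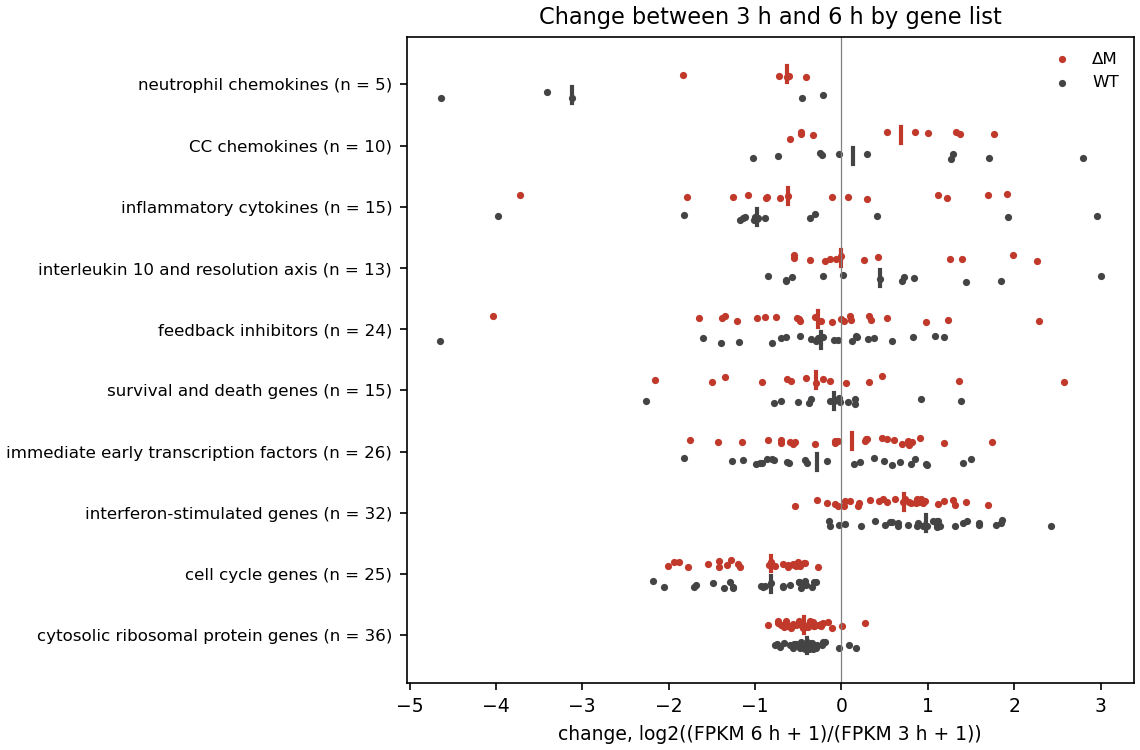
Change between 3 and 6 h of LPS for members of 10 gene lists that passed the filter, in ΔM cells (red) and WT cells (grey), log2((FPKM 6 h + 1)/(FPKM 3 h + 1)). Points are genes and bars are medians. The medians of neutrophil chemokines are -0.63 in ΔM and -3.12 in WT cells, and those of ribosomal protein genes are -0.43 in ΔM and -0.40 in WT cells.

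The cell cycle and ribosomal protein genes, lists not tied to inflammation, had like medians in both genotypes. The 25 cell cycle genes had median changes of -0.82 in each, with 11 falling in ΔM and 9 in WT cells. Of the 25, 19 were lower in ΔM cells by at least 0.5 already at 0 h, 19 at 3 h and 20 at 6 h. Over all 10975 genes 652 were lower by this limit at 3 h and 507 at 6 h. The count over all genes at 0 h is not given here. The 36 ribosomal protein genes had medians of -0.43 in ΔM and -0.40 in WT cells, with none past 2-fold. Among 24 feedback inhibitors of LPS signalling 2 rose and 5 fell in ΔM cells, against 2 and 4 in WT cells. Dusp1, a phosphatase of p38 and JNK, rose in both, to 686 FPKM at 6 h in ΔM and 486 FPKM in WT cells, against 291 FPKM at 3 h in ΔM and 229 FPKM in WT cells. Among 15 survival and death genes 2 rose and 3 fell in ΔM cells, against 1 and 1 in WT cells. Bcl2l11, which encodes the death-promoting protein Bim, fell in both, with changes of -2.16 in ΔM and -2.27 in WT cells. The TTP paralogs Zfp36l1 and Zfp36l2, which also bind AU-rich RNA, did not reach 2-fold in either genotype, and their ΔM changes were higher than the WT changes by 0.65 and 0.79. Zfp36l2 was at 123, 11.96 and 21.3 FPKM at 0, 3 and 6 h in ΔM cells, against 119, 6.01 and 5.98 FPKM in WT cells.

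The largest rises of ΔM cells were shared with WT cells. Scimp, an adaptor of Toll-like receptor signalling, was at 62.1 FPKM at 6 h and 5.28 at 3 h in ΔM cells, against 42.9 and 2.96 FPKM in WT cells. Nos2, the inducible nitric oxide synthase, was at 1289 at 6 h and 156 at 3 h in ΔM cells, against 1396 and 207 FPKM in WT cells. Pde7b, Il2ra, Fnip2, Lcn2 and Adora2b were also among the largest rises, with ΔM changes between 2.77 and 3.10. Of these Il2ra, the interleukin 2 receptor alpha chain, had a larger change in ΔM cells (2.98, against 2.17 in WT cells) and Lcn2, an iron-trapping lipocalin, a smaller one (2.80, against 3.58 in WT cells).

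Among genes that rose in ΔM cells to 10 FPKM or more at 6 h, the difference from WT was largest for Gm17035, Bcl2l1, Ndrg1, Il27, S100a8 and Il10. Bcl2l1, which encodes the survival protein Bcl-xL, was at 120, 19.0 and 119 FPKM at 0, 3 and 6 h in ΔM cells, against 125, 50.96 and 97.5 FPKM in WT cells, so that its dip at 3 h was deeper in ΔM cells and its 6 h level was near that at 0 h. Ndrg1 was at 108 at 6 h and 38.2 at 3 h in ΔM cells, against 33.8 and 37.3 FPKM in WT cells. Gm17035 lies antisense within Ndrg1 and had similar values. S100a8, a calcium-binding protein of neutrophils and monocytes, was at 15.9 at 6 h and 1.57 at 3 h in ΔM cells, against 4.21 and 0.85 FPKM in WT cells, and is also the 1 neutrophil marker over 1 FPKM.

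The largest falls of ΔM cells, apart from Gm17041, Cish, Ifnb1, Frmd6 and Gpr132 above, were those of Rhob, Ampd3 and Zdhhc14. Rhob, an immediate early small GTPase, was at 57.3, 20.3 and 1.59 FPKM at 0, 3 and 6 h in ΔM cells, against 47.5, 67.0 and 1.06 FPKM in WT cells. It was not a transient gene by the rule, and its 6 h levels were both low while its 3 h level was lower in ΔM cells. Ampd3, an AMP deaminase, had changes of -3.01 in ΔM and -3.12 in WT cells.

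Genes that came up late were examined in the same way. In WT cells 317 genes were at 10 FPKM or more at 6 h after a rise of at least 2-fold from 3 h. In ΔM cells 225 of them (71%) rose as in WT, 72 (22.7%) rose less by at least 0.5, 10 (3.15%) had a change under 0.5 and 10 (3.15%) rose more. A list chosen by its WT rise favours a smaller ΔM rise, so the question was turned round here too. Turned round, of 269 late genes of ΔM cells 201 (74.7%) rose alike in WT cells, 25 (9.29%) rose less, 5 (1.86%) had a change under 0.5 and 38 (14.1%) rose more. Over all genes at an FPKM of 10 or more the ΔM change was lower by at least 0.5 in 4.76% and higher by at least 0.5 in 2.79%. The late genes with the lowest difference were Hp, Cp, Pydc4, Spaca6, Neat1 and Ifi44. Hp, which encodes haptoglobin, was at 2.28, 3.39 and 23.3 FPKM at 0, 3 and 6 h in ΔM cells, against 0.77, 1.44 and 38.1 FPKM in WT cells. Cp, which encodes ceruloplasmin, was at 0.77, 23.7 and 69.8 FPKM in ΔM cells, against 0.27, 10.7 and 94.6 FPKM in WT cells. Both were higher in ΔM cells at 3 h and lower at 6 h. The median GC content was 45.4% for late genes that did not rise or rose less in ΔM cells and 50.6% for those that rose as in WT. With the GC trend taken off, 62 of 288 late genes rose less or not at all in ΔM cells, against 82 of 317 without this step. The share of all genes with a difference of -0.5 or less was then 2.81%.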

How the data were processed

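The series holds 42 poly(A) RNA libraries in 14 groups of 3. Per the labels and the methods, the authors built SENSE mRNA-Seq libraries (Lexogen), mapped single-end reads with GSNAP to mm10, quantified genes with Mix2 and tested expression with DESeq2. They deposited 1 FPKM value per gene, genotype and LPS time (6 columns used). How the 3 replicates were pooled is not given in the sources used here. The authors' columns of fold changes and FDR between ΔM and WT cells were not used. The deposited decay slopes and half-lives came from the authors' linear fits on log2 FPKM after actinomycin D. The crosslink sites came from the study's 6 h and 3 h lists. Genes with 3′ UTR sites were those of a separate list at 6 h and those with that feature named at 3 h.

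Here, a pseudocount of 1 FPKM was added and changes were computed with Python 3.11.15 (numpy 2.4.6, pandas 2.3.3). GC content and 3′ UTRs came from GENCODE vM1 coding transcripts (NCBIM37), and GRCm38 positions from RefSeq. The GC alternative took medians of 20 bins off the changes. Class rules were tested on simulated data. The genes named were Zfp36 and Plekhg2, up to 12 transient genes a class (largest difference, or lowest ΔM change where they fell alike), up to 4 that fell more, the 8 largest rises (1 is not reported here) and 8 largest falls, 6 late genes and 6 with the largest difference among those that rose, the study's decay panel and up to 4 members a list. The genes that fell less, those near a limit, those transient in ΔM cells only and other genes outside this rule were named after their values were seen. The members and lists were chosen with earlier results of these data known. With pooled values no test was run, and IDs without a symbol (96) keep their ID.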

Additional observations from a re-analysis of the deposited data

How the results depend on the processing

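No paired analysis was possible because the tables hold 1 pooled value per group, and for the same reason no replicate could be left out. Depth is unknown, so counting error could not be set beside any value. Over the 126 named genes, 1000 changes and differences were recomputed under the alternatives, and 0 of those that were 0.5 or more in size changed sign. Smaller ones were left out of that count, and the difference of Ifnb1 went from 0.25 to -0.94 with a pseudocount of 5. The largest shift of a named gene's difference was 1.19 and the median shift 0.03. With a pseudocount of 0.1, 1192 genes fell in ΔM and 1204 in WT cells, and 9 transient genes of WT cells fell more in ΔM cells, while of the 14 that did not fall or fell less 11 were kept, 3 left and 4 entered. With a pseudocount of 5, 213 rose and 200 fell in ΔM cells, against 243 and 241 in WT cells, 2 transient genes fell more, 57 genes were transient in ΔM cells, 9 of them with a reduced fall in WT cells, and 48 late genes rose less or not at all in ΔM cells. Centring the changes on the median gave 562 that rose and 367 that fell in ΔM cells, 681 and 395 in WT cells, and 487 late genes of WT cells. With 1.5-fold as the limit 918 rose and 2147 fell in ΔM cells, against 1048 and 2184 in WT cells, and with 3-fold 116 and 135, against 139 and 150.

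The class counts of transient genes followed their limits. At 0.3 instead of 0.5, 25 did not fall or fell less in ΔM cells (0 did not fall), 14 fell more, 39 of the ΔM list had a reduced fall in WT cells, and 140 late genes rose less or not at all. At 0.7, 6 did not fall and 1 fell more. A WT fall of 1.5-fold gave 149 transient genes, of which 23 did not fall or fell less (11 did not fall), 112 fell alike and 14 fell more. Some of the 11 differed from WT by less than 0.5, as given above. A 3-fold fall gave 42, of which 9 fell less, 0 did not fall and 30 fell alike. Without the induction rule there were 394, of which 49 did not fall or fell less (9 did not fall), 337 fell alike and 8 fell more. Without Gm17041 and 2 IDs with near-identical values, an alternative added after seeing the data, the counts were 14 of 82. The median slope difference at 6 h of genes that did not fall or fell less was 0.45 after centring on all genes and 0.71 with genes at 10 FPKM or more in both genotypes at that time, and that of genes that fell as in WT was 0.18 after centring. Of the genes that fell as in WT, 15 had a TTP site at 3 h by the 3 h rule given above. Of the same genes 51 held ATTTA and 5 TTATTTATT, the last also in 5 of the genes that did not fall or fell less.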
